A study of Mus musculus with 18 samples.

Results

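Small extracellular vesicles (sEVs) shed by primary mouse astrocytes were set against sEVs shed by primary mouse neurons. The comparison uses 6 of the 18 libraries of the study, 3 of astrocyte sEVs and 3 of neuron sEVs, taken by the cell type and replicate number that their labels give. Another 6 libraries, 3 of astrocytes and 3 of neurons, come from the cells themselves and serve to compare the sEVs with their source, and the remaining libraries, of microglia and their sEVs, enter only where they are named. The study was designed to examine how mRNA is packaged into sEVs by different brain cell types. The labels give brain as the tissue and primary culture as the kind of cell, and no treatment, strain, genotype or age of the animals. They do not say whether replicates are separate cultures, so every p-value below measures the spread between these libraries, which may be technical.

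sEVs are membrane-bound particles that form inside endosomes or bud from the plasma membrane, and they carry proteins, lipids and RNA out of the cell. Astrocytes are glial cells that buffer ions, take up glutamate and supply metabolites, and they are marked by the filament protein Gfap and the water channel Aqp4. Neurons are marked by tubulin, stathmin and synaptic vesicle genes, and their long axons depend on kinesin motors that carry organelles and mRNA.

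Polyadenylated RNA was reverse transcribed from its tail and amplified before sequencing. The authors deposited normalized counts, which are read estimates scaled between libraries. Whether 1 factor served a whole library or the scaling also varied by gene could not be told. The values are not taken as corrected for transcript length, so they are compared here between libraries and not between genes. Normalized counts added up to 40672561 to 52394530 in astrocyte sEV libraries and 50922667 to 54012400 in neuron sEV libraries. The reads behind them, estimated from the commonest value above 0 in each library, ran from 40496966 to 50300064 in astrocyte sEVs and from 30658292 to 53198054 in neuron sEVs. That estimate assumes 1 factor for a whole library. At 10 or more normalized counts, 12760.0 ± 1248 genes were present in astrocyte sEVs and 15626 ± 416 in neuron sEVs (SD, n = 3 each), with no overlap between the groups. That difference reached p = 0.1 in a two-sided exact permutation test, the smallest p that 3 against 3 libraries allow, and 0.175 after Benjamini-Hochberg adjustment over 14 library measures. Across the 14809 genes tested, log2 values correlated at 0.75 to 0.80 between astrocyte sEV libraries, 0.88 to 0.91 between neuron sEV libraries and 0.64 to 0.74 between an astrocyte and a neuron sEV library.

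The marker genes followed the labels. The 30 astrocyte markers together took 1.78%, 1.38% and 2.56% of the normalized counts in astrocyte sEV replicates 1, 2 and 3, against 0.389%, 0.507% and 0.589% in neuron sEV replicates. The 32 neuron markers took 0.106%, 0.111% and 0.0843% in astrocyte sEVs, against 0.657%, 0.621% and 0.493% in neuron sEVs. Neither pair of groups overlapped, and both differences had an exact permutation p of 0.1 (two-sided, adjusted 0.175). In the source cells the astrocyte markers took 4.27% of astrocyte and 0.729% of neuron libraries, and the neuron markers 0.136% of astrocyte and 2.14% of neuron libraries. In such bulk libraries a smaller part of the sEVs coming from a cell type and less of a transcript per sEV cannot be told apart.

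Markers of other cell types took small shares, some of which did not overlap between the groups. The oligodendrocyte, fibroblast and endothelial shares had an exact permutation p of 0.1, the smallest possible (two-sided, adjusted 0.175). The microglia share had 0.2 in the same test (adjusted 0.28). The 19 oligodendrocyte lineage markers took 0.404% ± 0.157 of astrocyte sEV libraries and 0.0617% ± 0.0100 of neuron sEV libraries (SD, n = 3 each), without overlap. The 24 microglia and macrophage markers stayed at or below 0.0163% in every one of the 6 libraries, against 4.54% in microglia sEVs. They averaged 0.0110% ± 0.00735 of astrocyte sEV and 0.00182% ± 0.000828 of neuron sEV libraries (SD, n = 3 each), with overlap. Cx3cr1, Tmem119 and Laptm5 were listed at 0 in all 3 astrocyte sEV libraries, and 11 of the 24 genes in all 3 neuron sEV libraries. Of the 9 microglia markers tested none was called, at a median log2 difference of 1.96, and 4 were called higher after quantile normalization. Fibroblast and meningeal markers took 0.00406% of astrocyte sEV and 0.00182% of neuron sEV libraries, and endothelial markers 0.000336% of astrocyte sEV and 0.00102% of neuron sEV libraries. The part these cell types have in the results below was not tested.

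**Figure D1:**
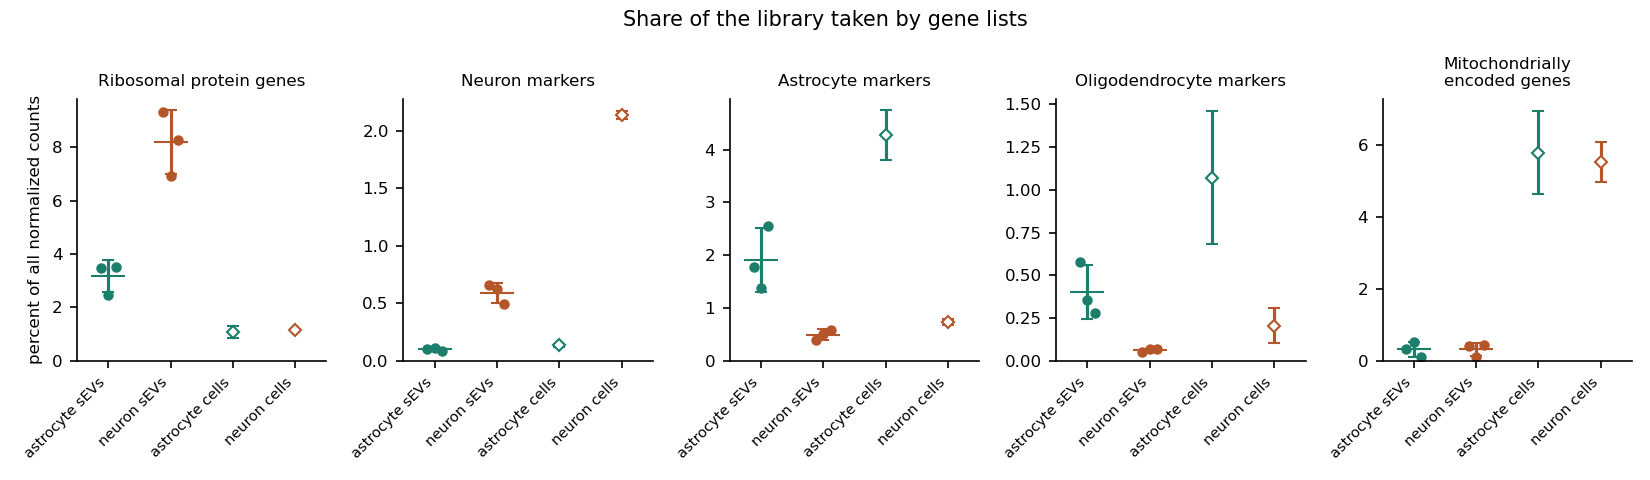
Percent of all normalized counts taken by 5 gene lists in astrocyte sEVs, neuron sEVs, astrocyte cells and neuron cells, where filled points are single sEV libraries with their mean and SD, and open diamonds are the mean and SD of 3 cell libraries. Ribosomal protein genes took 3.16% of astrocyte sEV and 8.19% of neuron sEV libraries while both kinds of cell lay near 1.08% to 1.17%, and mitochondrially encoded genes took 0.318% and 0.317% of the sEV libraries.

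Differences between the groups were tested gene by gene with limma on log2(normalized count + 1), and calls were made where the p adjusted by Benjamini and Hochberg over all genes tested lay under 0.05. Of 14809 genes, 781 were called higher in astrocyte sEVs (5.27%) and 2496 lower (16.9%), together 22.1%. The groups did not overlap in 43.1% of all genes tested. The median log2 difference, astrocyte sEVs minus neuron sEVs, was -0.62 over all genes, so the lists below are read beside that value. After quantile normalization the median of all genes moved up by 0.74, and 1558 genes were called higher and 1746 lower. With all libraries scaled to the same total it moved up by 0.24, and 1109 were called higher and 2107 lower.

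Many of the lower calls were genes with no reads in the astrocyte sEVs. Of the 2496 genes called lower, 652 were listed at 0 in all 3 astrocyte sEV libraries, 423 in 1 or 2 of them, and 1421 were above 0 in all 3. The 652 genes passed the filter on low values through the neuron sEVs alone and so had to differ. The converse held for 9 of the 781 genes called higher. Leaving out neuron sEV replicate 1, 2 or 3 cut the calls to 252, 311 and 363 higher and 584, 678 and 787 lower, each time with 2 libraries left for neuron sEVs. The filter still asked for 3 libraries, so genes tested fell to 13686, 13536 and 13551, and the 652 genes could not be tested. Lower calls of such genes had to be lost in these fits, here and in every list below. Leaving out astrocyte sEV replicate 1, 2 or 3 gave 653, 866 and 669 higher and 2540, 3206 and 2716 lower.

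Part of the genes that define astrocytes were higher in their sEVs. Of the 29 astrocyte markers tested, 12 were called higher and none lower (41.4% called), with a median log2 difference of 1.0. These calls and those of the glial lists below are read beside the 5.27% of all genes called higher and 16.9% called lower. Gfap, the intermediate filament of astrocytes, had 366240.0, 365533 and 648097 normalized counts in astrocyte sEVs, against 58029, 86029 and 79279 in neuron sEVs. Every astrocyte sEV library lay above every neuron sEV library, and the log2 difference was 2.59 ± 0.34 (SE), with a limma adjusted p of 0.0028. Aqp4, the water channel of astrocyte endfeet, had 9039, 8595 and 4365 in astrocyte sEVs, against 329, 549 and 567 in neuron sEVs, a log2 difference of 3.90 ± 0.38 (limma adjusted p = 0.00198). Gja1, which encodes the gap junction protein connexin 43, stood at 5586, 6084 and 4889.6 in astrocyte sEVs and at 734, 1370.4 and 1114 in neuron sEVs, 2.40 higher on the log2 scale. Sox9, a glial transcription factor, stood at 35570.4, 46858 and 23970.2 in astrocyte sEVs and at 4691, 8310.3 and 8004 in neuron sEVs, 2.33 higher on the log2 scale.

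Not every astrocyte gene followed. Aldoc, a glycolytic enzyme used as an astrocyte marker, had 43181, 28315 and 62018 normalized counts in astrocyte sEVs and 36101, 41415 and 48342 in neuron sEVs. Slc1a2, the main glutamate transporter of astrocytes, had 14923, 28292 and 6776 in astrocyte sEVs and 10096, 19896 and 18152 in neuron sEVs. The groups overlapped for both genes, and their log2 differences of 0.02 ± 0.31 and -0.12 ± 0.53 (SE) did not pass the test (limma adjusted p = 0.964 and 0.89). In the cells the log2 differences, astrocyte minus neuron, were 0.84 for Aldoc and 0.90 for Slc1a2, and the interaction described further on called neither. The astrocyte markers called higher numbered 6, 8 and 9 without neuron sEV replicate 1, 2 or 3. When microglia sEVs entered the fit to share 1 estimate of the spread they numbered 2, with Gfap kept and Aqp4, Gja1 and Sox9 lost. The log2 difference of a gene stays the same in that fit, here and below, and only the spread changes. Astrocyte markers took 0.0238% and neuron markers 0.0118% of microglia sEV libraries. The part of such low values in the shared spread was not tested.

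**Figure D2:**
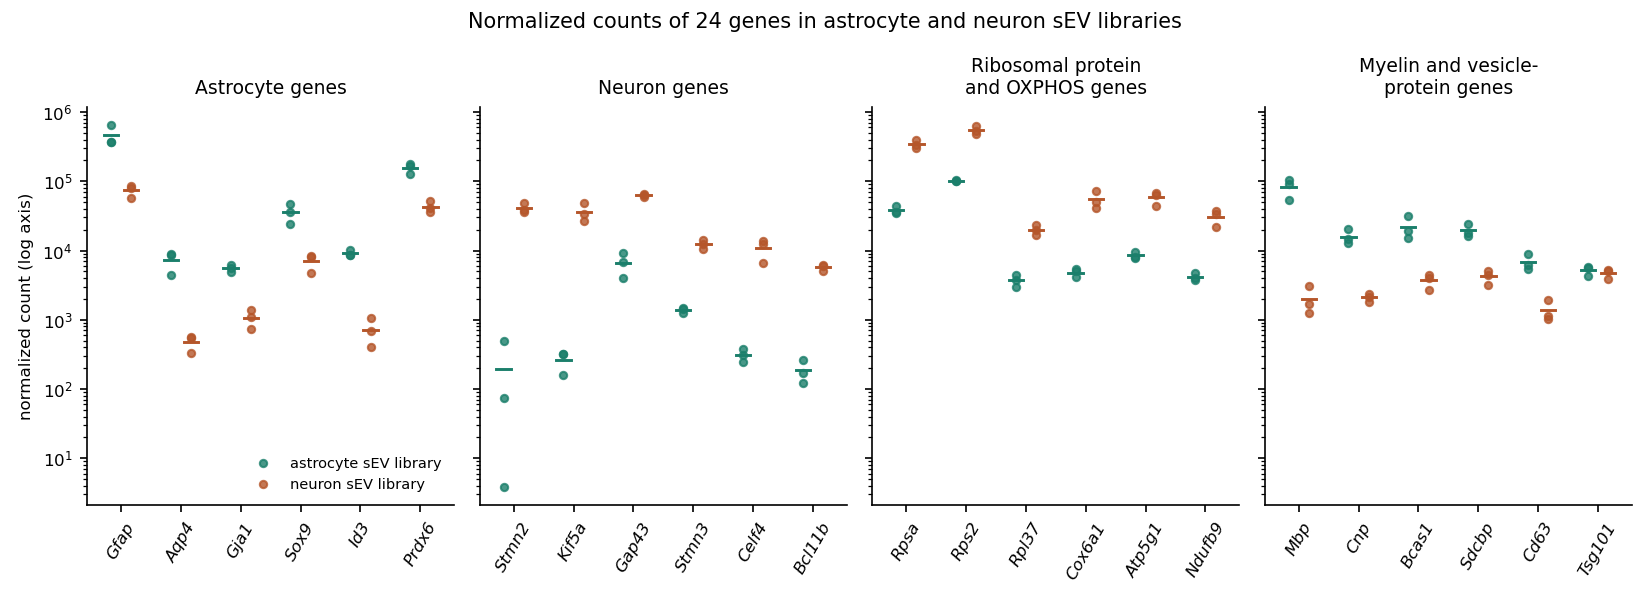
Normalized counts on a log axis of 24 genes in the 3 astrocyte sEV libraries (left of each pair) and the 3 neuron sEV libraries (right), each point a library and each bar a mean. The groups separate for Gfap, Stmn2, Rpsa and Mbp, in both directions, and overlap for Tsg101.

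Other glial gene groups moved in part. Among 26 glial and progenitor transcription factors, 10 were called higher and 2 lower, with a median log2 difference of 0.93. Id3, an inhibitor of neurogenic helix-loop-helix factors, had 8663, 8671 and 10227 normalized counts in astrocyte sEVs, against 689.7, 409 and 1062 in neuron sEVs. The log2 difference was 3.77 ± 0.36 (SE, limma adjusted p = 0.00183), the groups were far apart, and the related Id1 was 3.10 higher. Tcf7l2, a factor of the Wnt pathway, had 6464, 9348 and 6889.8 in astrocyte sEVs, against 954, 1050.1 and 861 in neuron sEVs, and was 2.97 ± 0.23 higher (limma adjusted p = 0.00154). With microglia sEVs in the fit, 4 of these factors were called higher and none lower, and without neuron sEV replicate 1, 2 or 3 the lower calls came to 1.

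Filament and antioxidant genes held higher calls above the 5.27% of all genes, and lower calls near the 16.9% of all genes. Of 21 glial filament and cytoskeleton genes, 8 were called higher and 3 lower. Of the 3, 1 was at 0 in all astrocyte sEV libraries and had to differ. Cnn3, an actin-binding calponin, had 37493, 25701 and 49658 normalized counts in astrocyte sEVs, against 5403, 4829 and 7186 in neuron sEVs, 2.67 higher on the log2 scale. Plec, which links filaments to each other, was 2.10 higher. The lower calls here numbered 0, 1 and 0 without neuron sEV replicate 1, 2 or 3. Of 24 metallothionein, glutathione and antioxidant genes, 7 were called higher and 5 lower. Prdx6, a peroxiredoxin abundant in astrocytes, had 129427, 165923 and 177330.0 in astrocyte sEVs, against 36087, 41539.6 and 51239 in neuron sEVs, a log2 difference of 1.88 ± 0.24 (SE, limma adjusted p = 0.00258). The libraries did not overlap. Mt2, a metal-binding metallothionein, and Prdx1, another peroxiredoxin, were 1.78 and 1.96 higher on the same scale. The lower members of that list included Gpx4, a lipid peroxidase, and Sod1, and without neuron sEV replicate 1, 2 or 3 its higher calls were 4, 4 and 5 and its lower calls 1, 5 and 3.

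Transporters and secreted factors of astrocytes held calls in both directions. Of the transporter list 30% were called and of the secreted list 20%, beside 22.1% of all genes. In both lists the lower calls fell below the 16.9% of all genes. Of 20 astrocyte transporters, channels and connexins, 4 were called higher and 2 lower in sEVs, and their median log2 difference of 0.46 stood beside 1.60 in the cells. The higher members were Aqp4, Gja1, Atp1b2 and Slc1a3, and the lower ones the potassium channel gene Kcnj10 and the GABA transporter gene Slc6a11. None of the 6 kept its call with microglia sEVs in the fit, and without neuron sEV replicate 1 the counts were 2 higher and 1 lower. Of 25 secreted glial factors and lipoproteins, 3 were called higher and 2 lower. Of the 2, 1 was at 0 in all astrocyte sEV libraries and had to differ. Without neuron sEV replicate 1, 2 or 3 the counts were 1, 3 and 1 higher and 1, 0 and 0 lower. Without astrocyte sEV replicate 2 this list had 5 lower calls, and its higher calls were 9 after quantile normalization, 5 with equal totals and 0 with microglia sEVs in the fit.

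Some oligodendrocyte lineage genes stood far above their level in neuron sEVs, and Mobp was among the 15 largest increases. Of 16 oligodendrocyte lineage markers tested, 5 were called higher, 1 lower and 10 not, beside 5.27% of all genes called higher and 16.9% lower. The median log2 difference of the list was 2.63 in sEVs and 1.88 in cells. Mbp, which compacts the myelin sheath, had 105195, 91669.7 and 53119 normalized counts in astrocyte sEVs, against 1249, 1676 and 3065 in neuron sEVs. The libraries of the groups were far apart, with a log2 difference of 5.43 ± 0.39 (SE, limma adjusted p = 0.00154). Cnp, a phosphodiesterase of myelin-forming cells, was 2.89 higher on the log2 scale, but it overlaps Dnajc7 on the other strand, and the library kit does not mark strand. Bcas1, expressed in young oligodendrocytes, was 2.51 higher, and Mobp had 7918, 2484 and 1665 in astrocyte sEVs, against 77.9, 0 and 27.8 in neuron sEVs. With 0.1 in place of 1 added to each count the call of Mobp was lost (limma adjusted p = 0.0506). The gene called lower, named after its value was seen, was Cspg4, a proteoglycan of oligodendrocyte precursors, whose call was lost without neuron sEV replicate 1, 2 or 3 and without astrocyte sEV replicate 1 or 3. The astrocyte cells held the same lineage markers, at 1.07% of their libraries against 0.205% in neuron cells.

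Neuronal gene groups held transcripts that were lower in astrocyte sEVs, in shares that ranged widely and are read beside the 16.9% of all genes called lower. Of 31 neuron markers tested, 22 were called lower and none higher, with a median log2 difference of -4.17. Nefh, Gad2, Slc17a7 and Slc17a6 were listed at 0 in all 3 astrocyte sEV libraries. Of the 22 markers called lower, 3 were among these and had to differ. Stmn2, a microtubule-binding stathmin of growing axons, had 3.83, 498 and 73.4 normalized counts in astrocyte sEVs, against 48184, 36104 and 38935 in neuron sEVs. Astrocyte sEV replicate 2 lay well above the other replicates and still far below every neuron sEV library, and the log2 difference was -9.50 ± 1.49 (SE, limma adjusted p = 0.00469). The markers called lower numbered 11, 11 and 15 without neuron sEV replicate 1, 2 or 3, and with microglia sEVs in the fit 8.

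Cytoskeletal and growth cone genes of neurons were mostly called lower. Of 35 such genes, 26 were called lower and 2 higher, with a median log2 difference of -2.65. Of the 26, 2 were at 0 in all astrocyte sEV libraries and had to differ. Kif5a, a kinesin motor of axonal transport, had 160.0, 316 and 317 normalized counts in astrocyte sEVs, against 48327, 33432 and 26531 in neuron sEVs. Both groups were tight and far apart, with a log2 difference of -7.11 ± 0.36 (SE) and a limma adjusted p of 0.000973. Gap43, a protein of growth cones, had 6769.8, 9249 and 4042 in astrocyte sEVs, against 63685, 65092 and 59396 in neuron sEVs, a log2 difference of -3.31 ± 0.30 (limma adjusted p = 0.0018). Stmn3, another stathmin, had 1423, 1455 and 1259 in astrocyte sEVs, against 14305, 10592 and 12428 in neuron sEVs, -3.16 on the log2 scale. Dpysl5, which takes part in growth cone collapse, had 202, 141 and 142 in astrocyte sEVs, against 14588, 15209.6 and 7308 in neuron sEVs. The list held 15, 17 and 20 lower calls without neuron sEV replicate 1, 2 or 3. With microglia sEVs in the fit it held 11, among which Gap43 and Stmn3 were not.

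The nuclear factors and RNA-binding proteins of neurons followed. Of 24 neuronal transcription factors tested, 16 were called lower and 1 higher. Of the 16, 5 were at 0 in all astrocyte sEV libraries, so that they passed the filter through neuron sEVs alone and had to differ. Bcl11b, a factor of deep-layer cortical neurons, had 171, 266 and 123 normalized counts in astrocyte sEVs, against 5917, 6165 and 4982 in neuron sEVs. The log2 difference was -4.99 ± 0.37 (SE, limma adjusted p = 0.00154). Neurod6, a factor of excitatory cortical neurons, was listed at 0 in all astrocyte sEV libraries and had 1196, 1320.0 and 1066 in neuron sEVs. It was 1 of the 5 that had to differ. The factor called higher was Sox4. Of 21 neuronal RNA-binding proteins, 10 were called lower, among them Celf4 at -5.08 ± 0.35 (SE, limma adjusted p = 0.00154), a splicing and translation regulator with 307, 245 and 381 normalized counts in astrocyte sEVs and 13781, 12246 and 6680.5 in neuron sEVs. The lower calls were 4, 4 and 5 factors and 3, 3 and 7 RNA-binding proteins without neuron sEV replicate 1, 2 or 3.

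Synaptic genes held lower calls on both sides of the synapse. Of 31 synaptic vesicle and release genes, 17 were called lower and none higher, at a median log2 difference of -3.55. Of the 17, 3 were at 0 in all astrocyte sEV libraries and had to differ. Vamp2, the vesicle-side SNARE protein, had 463, 819.8 and 751 normalized counts in astrocyte sEVs, against 6819.8, 7460.3 and 5045 in neuron sEVs. No library crossed between the groups. Snap25, its partner on the plasma membrane, had 469, 281 and 209 in astrocyte sEVs, against 5472, 1937 and 4223 in neuron sEVs, and its call was lost with microglia sEVs in the fit. Of 32 glutamate and GABA receptor subunits, 11 were called lower, 5 of which were listed at 0 in all astrocyte sEV libraries. Without neuron sEV replicate 1, 2 or 3 the lower calls fell to 8, 8 and 9 vesicle genes and 1, 2 and 3 receptor subunits.

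Ion channels, guidance and adhesion molecules and neuropeptides held lower calls in unequal shares. Of 31 voltage-gated ion channel genes, 15 were called lower, 5 of them listed at 0 in all astrocyte sEV libraries. Cacnb3, a calcium channel subunit, had 772, 856 and 1224 normalized counts in astrocyte sEVs, against 12947, 13563 and 8743 in neuron sEVs, a log2 difference of -3.63 ± 0.28 (SE, limma adjusted p = 0.00154). Cacng2, which traffics AMPA receptors, was listed at 0 in astrocyte sEVs and at 2362, 1579.7 and 999 in neuron sEVs. Axon guidance genes had 6 lower calls of 34 (17.6%), near the 16.9% of all genes, and neural adhesion genes 11 of 33. Of these, 4 guidance and 2 adhesion genes were at 0 in all astrocyte sEV libraries, so that they passed the filter through neuron sEVs alone and had to differ. Leaving out neuron sEV replicate 1, 2 or 3 left 2 lower calls each time among the channels, none among the guidance genes, and 1, 1 and 3 among the adhesion genes. The channel, guidance and adhesion genes at 0 in all astrocyte sEV libraries could not pass the filter in these fits. Without astrocyte sEV replicate 1 or 2 the guidance genes had 10 and 15 lower calls, and without astrocyte sEV replicate 2 the adhesion genes had 17. Of 18 neuropeptide and granin genes tested, 9 were called lower and 1, the peptide-processing enzyme Cpe, higher, and 5 of the 9 had to differ in the same way. Cck, a peptide of cortical interneurons and pyramidal cells, was listed at 0 in every astrocyte sEV library and at 7553, 7454 and 5613 in neuron sEVs. Npy, another interneuron peptide, was listed at 0 in astrocyte sEVs and at 891, 338 and 824 in neuron sEVs. The peptide genes had 2, 2 and 3 lower calls without neuron sEV replicate 1, 2 or 3. With microglia sEVs in the fit the lower calls were 4 neuronal RNA-binding proteins, 9 synaptic vesicle genes, 9 guidance genes and 3 adhesion genes.

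**Figure D3:**
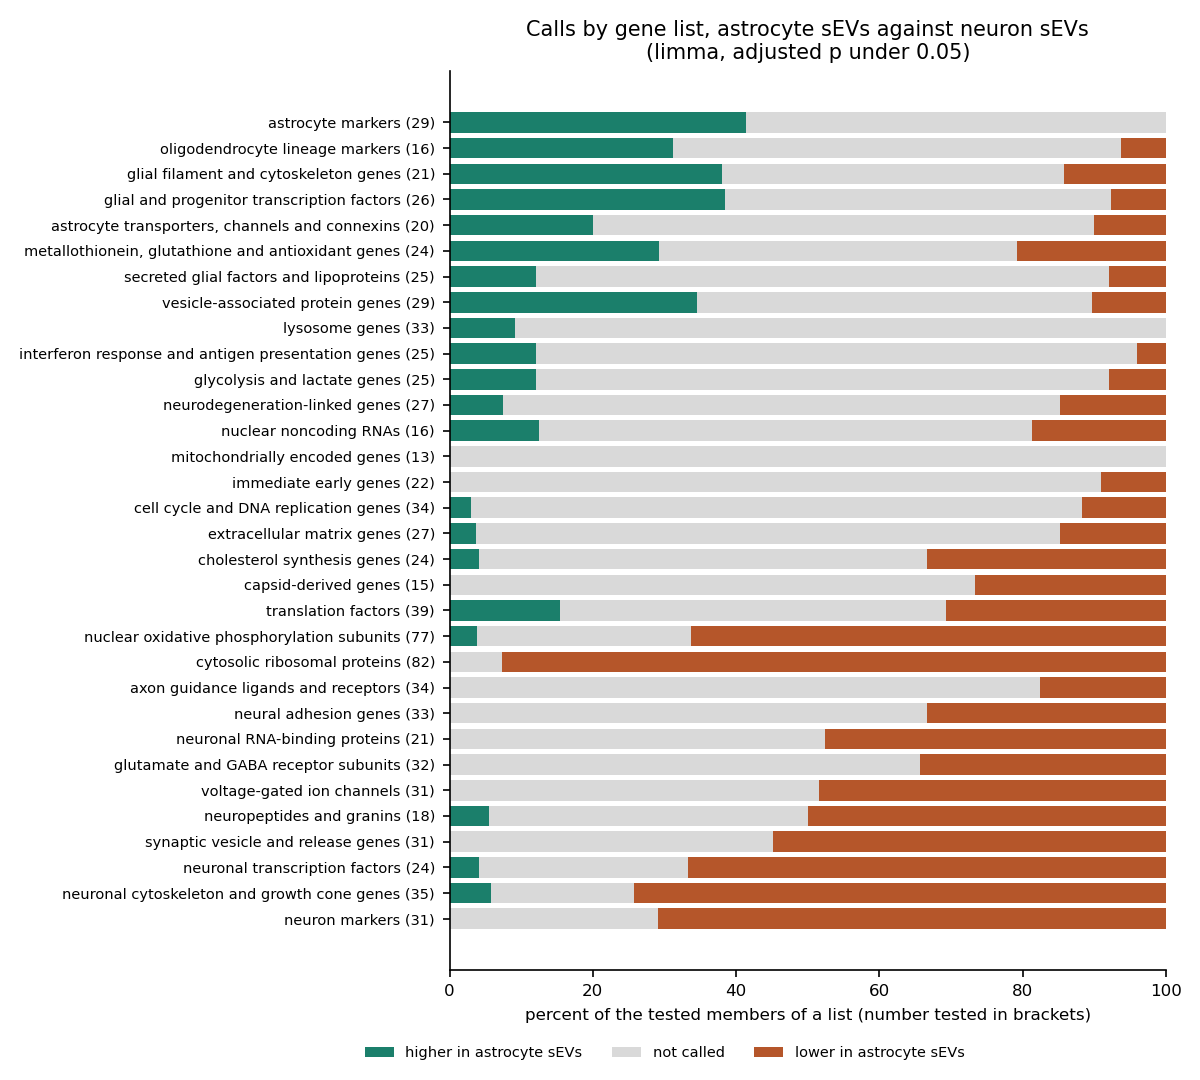
Percent of the tested members of each gene list (number tested in brackets) called higher in astrocyte sEVs, not called, or called lower, in the limma fit of 3 astrocyte sEV against 3 neuron sEV libraries. Of the ribosomal protein genes 76 of 82 were called lower and none higher, and of the neuron markers 22 of 31, against 16.9% of all genes.

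Genes of the ribosome were lower in astrocyte sEVs as a body. Of 82 cytosolic ribosomal protein genes, 76 were called lower and none higher, with a median log2 difference of -1.63 beside -0.62 over all genes. The groups did not overlap in 78 of the 82. Together these genes took 3.48%, 2.47% and 3.53% of the normalized counts in astrocyte sEV replicates 1, 2 and 3, against 9.34%, 6.94% and 8.29% in neuron sEV replicates. The genes not called were Rpl3, Rpl4, Rpl5, Rpl22l1, Rpl27 and Rps27l. The count was 70 after quantile normalization, 69 with equal totals, 64 to 75 without any single library and 78 with microglia sEVs in the fit.

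Single ribosomal genes differed by several fold. Rpsa, a small-subunit protein that also binds laminin at the cell surface, had 43415, 34766 and 36526 normalized counts in astrocyte sEVs, against 388641, 298240.0 and 339572 in neuron sEVs. All neuron sEV libraries lay above all astrocyte sEV libraries, with a log2 difference of -3.16 ± 0.23 (SE, limma adjusted p = 0.00154). Rps2, a small-subunit protein near the mRNA entry site, had 99952, 99714 and 103658 in astrocyte sEVs, against 631212, 536990.0 and 478691 in neuron sEVs. Its log2 difference was -2.43 ± 0.28 (SE, limma adjusted p = 0.00211). Rpl37, a large-subunit protein, had 2949, 3741 and 4439 in astrocyte sEVs, against 23473, 16616 and 19521 in neuron sEVs, -2.43 ± 0.22 (SE, limma adjusted p = 0.0018). Rps2 and Rpsa have 32 and 12 near-identical copies in the annotation, most of them predicted genes or pseudogenes, so the split of reads among copies is uncertain, and Rps2 also overlaps Snhg9 on the other strand.

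Ribosomal protein mRNAs belong to the terminal oligopyrimidine class, whose transcripts begin with a C followed by a run of pyrimidines and whose translation is controlled by mTOR. The windows from 50 bases before to 50 bases after the annotated start of 6 genes that were lower or abundant are shown so that such runs can be seen, from RefSeq on GRCm38.p6, all on the plus strand. Capitals mark the motif CTTTT, the motif CTTTC, the motif CTTCC and the motif CTCTT, which were searched on the sense strand alone and may overlap. The coordinates are chr9:120127716-120127815 for Rpsa, chr17:24720013-24720112 for Rps2, chr15:5116563-5116662 for Rpl37, chr1:63176781-63176880 for Eef1b2, chr5:115559417-115559516 for Rplp0 and chr14:75845206-75845305 for Tpt1.
Rpsa: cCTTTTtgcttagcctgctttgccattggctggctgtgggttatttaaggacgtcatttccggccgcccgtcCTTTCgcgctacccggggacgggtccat
Rps2: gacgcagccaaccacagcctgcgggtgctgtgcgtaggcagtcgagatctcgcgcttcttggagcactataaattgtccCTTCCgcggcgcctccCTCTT
Rpl37: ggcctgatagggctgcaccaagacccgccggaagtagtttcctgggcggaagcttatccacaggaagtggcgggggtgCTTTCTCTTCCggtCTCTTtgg
Eef1b2: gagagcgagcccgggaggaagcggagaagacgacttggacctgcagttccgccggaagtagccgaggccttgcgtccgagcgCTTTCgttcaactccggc
Rplp0: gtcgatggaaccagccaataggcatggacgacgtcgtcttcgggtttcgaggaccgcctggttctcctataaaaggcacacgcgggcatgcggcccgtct
Tpt1: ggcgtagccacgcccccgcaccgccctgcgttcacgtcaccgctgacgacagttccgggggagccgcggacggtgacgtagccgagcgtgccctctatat

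Rpsa, Rps2, Rpl37 and Eef1b2 held at least 1 of the 4 motifs in these windows, and Rplp0 and Tpt1 held none. The motifs were chosen after the ribosomal result was known. CTTTC stood in 54.1% of the 61 ribosomal protein genes found in the RefSeq table, in 7.69% of 65 oxidative phosphorylation genes and in 12.3% of 11057 genes tested in sEVs. CTCTT stood in 52.5%, 9.23% and 12.8% of the same sets. CTTTT stood in 23%, 12.3% and 9.96%, and CTTCC in 49.2%, 43.1% and 25.1%. A match describes letters in the window and does not show where transcription starts.

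The other components of translation were mixed. Of 39 translation factor genes, 12 were called lower and 6 higher (46.2% called, beside 22.1% of all genes). Their median log2 difference of -0.16 turned to 0.03 after quantile normalization and 0.08 with equal totals. Eef1b2, which reloads the elongation factor with GTP, had 8324, 7056 and 8142 normalized counts in astrocyte sEVs, against 39540.1, 31409 and 39114 in neuron sEVs, a log2 difference of -2.22 ± 0.18 (SE, limma adjusted p = 0.00154). It overlaps Ndufs1 on the other strand. Tpt1, a growth-related protein with a terminal oligopyrimidine mRNA, had 21305, 14083 and 15699 in astrocyte sEVs, against 82067, 51754 and 72594 in neuron sEVs. Eif4a1, the helicase that unwinds mRNA before scanning, went the other way, with 21151, 18279.6 and 18157 in astrocyte sEVs and 6624, 4408 and 7545 in neuron sEVs, 1.66 ± 0.23 higher (SE, limma adjusted p = 0.00324). Eif5, which helps select the start codon, was 1.19 higher on the log2 scale. The factors called higher numbered 3, 2 and 2, and those called lower 6, 8 and 7, without neuron sEV replicate 1, 2 or 3.

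Nuclear genes of the respiratory chain resembled the ribosomal genes in direction. Of 77 such genes, 51 were called lower and 3 higher, with a median log2 difference of -1.25. Cox6a1, a subunit of cytochrome oxidase, had 5331, 4108 and 4987 normalized counts in astrocyte sEVs, against 73163, 40505 and 50452 in neuron sEVs. The log2 difference was -3.47 ± 0.25 (SE, limma adjusted p = 0.00154), and the groups were far apart. Atp5g1, part of the rotor of ATP synthase, had 9634, 7689.7 and 8163 in astrocyte sEVs, against 63976, 44578 and 66809 in neuron sEVs, -2.77 on the same scale. Ndufb9, a subunit of NADH dehydrogenase, had 4044, 3739.7 and 4770.4 in astrocyte sEVs, against 37348, 21595 and 34051 in neuron sEVs, -2.86. The 3 genes called higher, named after their values were seen, were Uqcrc1, Sdha and Ndufs1, subunits of complexes of the same chain. Without neuron sEV replicate 1 the lower calls numbered 32, and the higher calls were 5 without astrocyte sEV replicate 2 and 1 without neuron sEV replicate 2. After quantile normalization 41 were called lower and 6 higher, and with equal totals 36 lower and 3 higher. Without a trend in the variance 32 were called lower. The genes that the mitochondrial genome itself encodes did not follow: none of 13 was called, and the median of -0.28 reached 0.00 after quantile normalization and -0.04 with equal totals.

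Transcript length moved with these results. The longest annotated transcript had a median of 1076.5 bases in ribosomal protein genes and 1141 bases in respiratory chain genes, against 3266.5 bases over all genes tested. In the shortest of 5 equal groups of genes, 204 to 1783 bases, 22.1% were called lower, against 15.3% to 15.8% in the other 4. Median GC content was 45.2% in genes called higher and 52.5% in genes called lower, against 49.4% over all genes. The part of length and GC content in the results was not tested.

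Differences in sEVs mostly had the sign of those in the source cells. Of the genes called higher in astrocyte sEVs and tested in cells, 709 of 775 were also higher in astrocyte cells (91.5%), and 2158 of 2329 called lower were lower there (92.7%), where 57.7% of all genes were lower. Across 14189 genes the differences in sEVs and in cells correlated at 0.69, a description over genes that share the same 12 libraries. Whether the astrocyte minus neuron difference itself departed between sEVs and cells was tested as an interaction in limma over the 12 libraries. Of 18524 genes, 482 had a higher difference in sEVs (2.60%) and 505 a lower one (2.73%), together 5.33%. Without neuron cell replicate 1, 2 or 3 those counts were 80, 91 and 84 higher and 206, 231 and 213 lower. Of the 3277 genes called in sEVs, 521 were also called in the interaction.

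**Figure D4:**
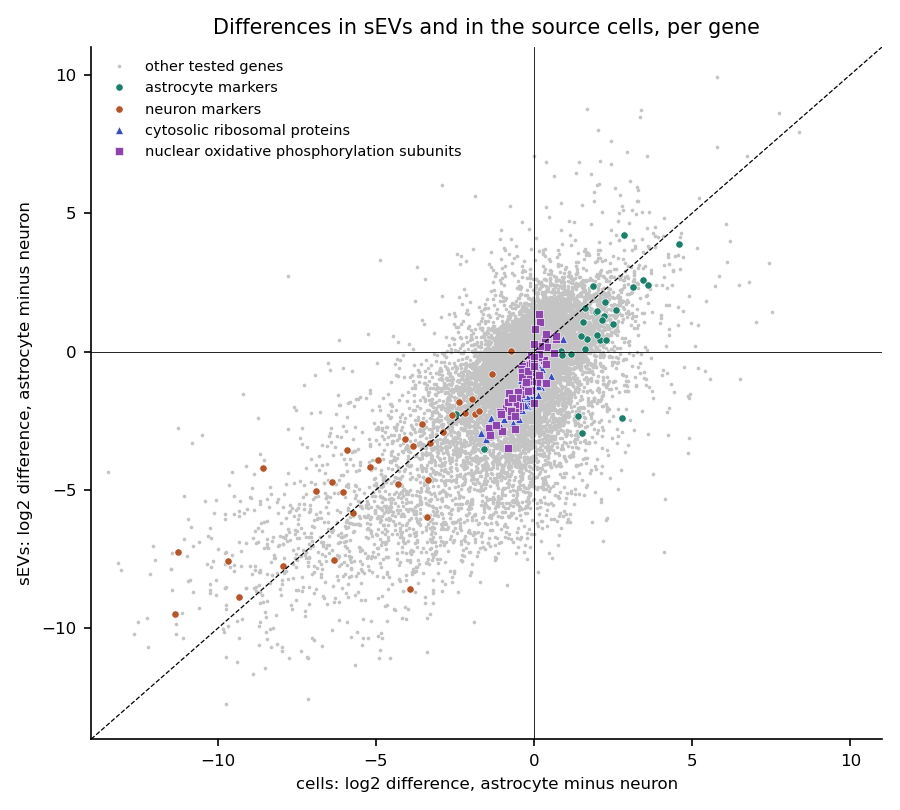
Each point is a gene, placed by its log2 difference (astrocyte minus neuron) in cells on the horizontal axis and in sEVs on the vertical axis, with 4 gene lists in colour and the dashed line at equality. Ribosomal protein and respiratory chain genes lie below the line, with medians of -1.63 and -1.25 in sEVs and -0.32 and -0.22 in cells.

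Ribosomal protein genes made up a visible part of the lower side. Of the 82, 64 had a lower difference in sEVs than in cells and none a higher one, and the median of the interaction was -1.36 beside -0.29 over all genes. Rpsa averaged 4093 ± 652 normalized counts in astrocyte cells and 11591 ± 1550.3 in neuron cells (SD, n = 3 each), a log2 difference of -1.51 beside -3.16 in sEVs. The interaction was -1.65 with a limma adjusted p of 0.00257. Rplp0 averaged 24407 ± 3056 in astrocyte cells and 30989 ± 1498 in neuron cells, against 135631, 140404 and 145054 in astrocyte sEVs and 435693, 410275 and 392365 in neuron sEVs, an interaction of -1.20 (limma adjusted p = 0.00187). The 64 calls became 56 after quantile normalization, 28 with equal totals, 32 with equal totals that leave out Ftl1 and Gm42047, 34 and 33 without neuron cell replicate 1 or 3, and 33 to 73 over all libraries left out in turn.

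Among the 77 respiratory chain genes, 27 had a lower and 2 a higher difference in sEVs than in cells. Cox6a1 averaged 16107 ± 2589.6 in astrocyte cells and 28556 ± 2436 in neuron cells (SD, n = 3 each), -0.83 on the log2 scale, and its interaction was -2.64 (limma adjusted p = 0.00125). The lower calls became 16 after quantile normalization, 7 and 9 with the same scalings to equal totals. They became 13, 12 and 9 without astrocyte cell replicate 1, 2 or 3, 5, 8 and 6 without neuron cell replicate 1, 2 or 3, and 8 each without neuron sEV replicate 1 or 3. None of the 30 astrocyte markers was called in the interaction, and their median was -1.0 beside -0.29 over all genes. Lower calls among them came to 2 after quantile normalization. They came to 3, 2 and 3 without astrocyte sEV replicate 1, 2 or 3, and to 1 without neuron sEV replicate 1. Of 25 neuropeptide and granin genes, 5 were called with a higher and 2 with a lower difference in sEVs than in cells. The higher calls of that list were 0, 1 and 1 without neuron cell replicate 1, 2 or 3, 3 each without astrocyte cell replicate 1, 2 or 3, and 10 after quantile normalization, and its lower calls ranged from 0 to 3 over all libraries left out in turn.

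**Figure D5:**
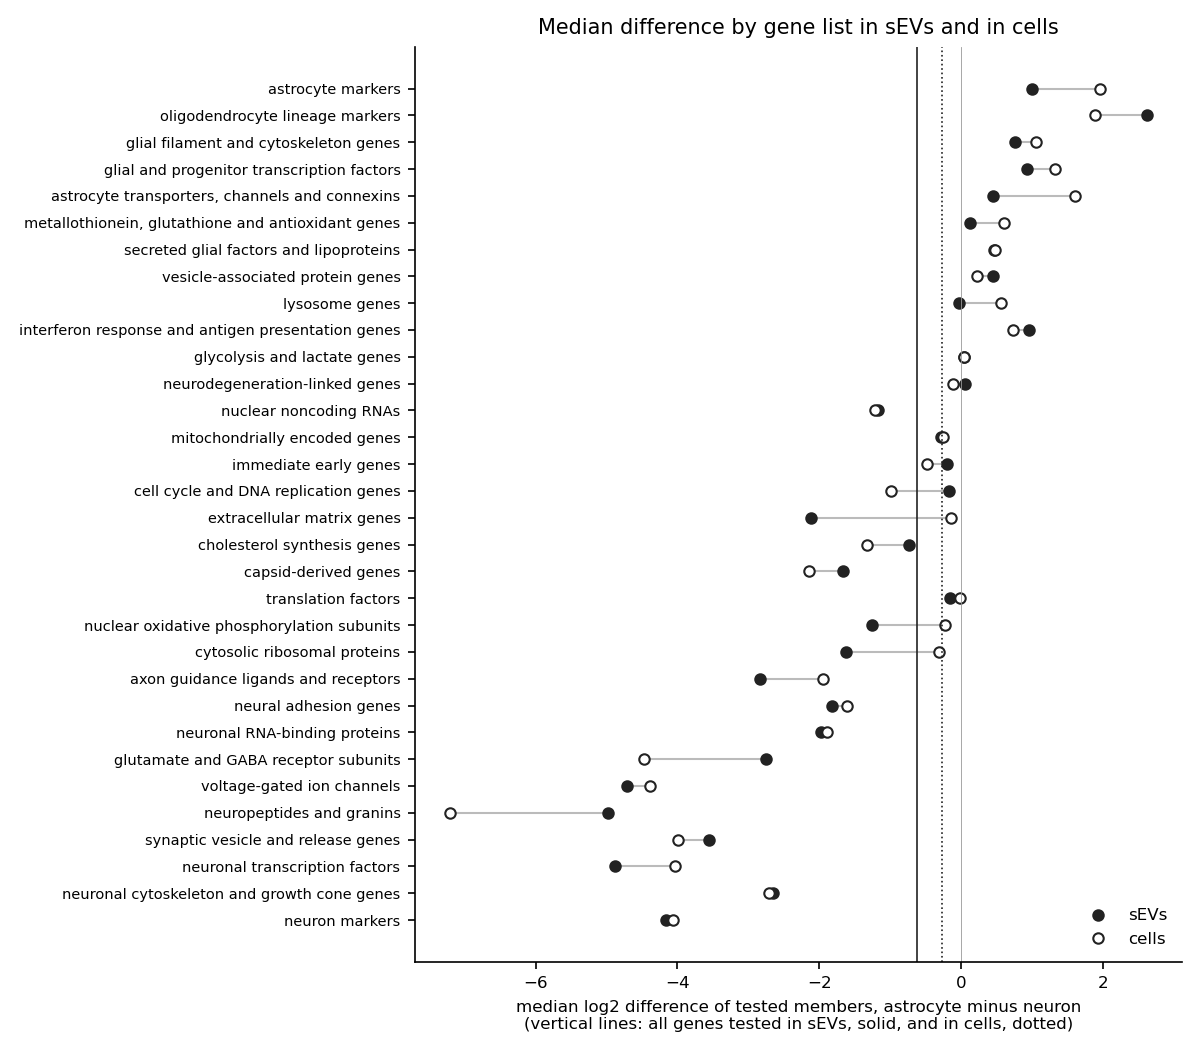
Median log2 difference, astrocyte minus neuron, of the tested members of 32 gene lists, in sEVs (filled) and in cells (open), with vertical lines at the medians of all genes tested in sEVs (-0.62, solid) and in cells (-0.26, dotted). The ribosomal protein and respiratory chain lists lie further left in sEVs than in cells, at -1.63 and -1.25.

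Some genes departed from their source cells one by one. Igf1, an insulin-like growth factor, had 705, 627 and 471 normalized counts in astrocyte sEVs, against 73.4, 43.7 and 63.5 in neuron sEVs. In the cells the order was opposite, with 46.1 ± 23.7 in astrocytes and 1270.0 ± 210.4 in neurons (SD, n = 3 each). The interaction was 8.17 ± 0.72 on the log2 scale (SE, limma adjusted p = 0.00071), while the call within sEVs alone was lost without neuron sEV replicate 1, 2 or 3, at log2 differences of 3.47, 3.10 and 3.36. Ilk, a kinase at integrin contacts, ran the opposite way, with 5250.0, 4648 and 5369 in astrocyte sEVs and 8961, 10869 and 9938 in neuron sEVs, against 7547 ± 708 in astrocyte cells and 3105 ± 347 in neuron cells. Its interaction was -2.24 (limma adjusted p = 0.00071), and it overlaps Taf10 and Rrp8 on the other strand.

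Genes for proteins known from sEVs were tested as transcripts. Of 29 such genes, 10 were called higher and 3 lower, beside 5.27% and 16.9% of all genes. Their median log2 difference was 0.45, and 1 of the 3 was at 0 in all astrocyte sEV libraries and had to differ. Cd63, a tetraspanin of endosomes, had 6154, 8840.0 and 5470.2 normalized counts in astrocyte sEVs, against 1039.8, 1927 and 1129 in neuron sEVs, a log2 difference of 2.35 ± 0.32 (SE, limma adjusted p = 0.00296). Sdcbp, the scaffold syntenin, had 18156, 16464 and 24050.5 in astrocyte sEVs, against 3176, 5134 and 4396 in neuron sEVs, 2.22 higher, and it overlaps Nsmaf on the other strand. Vps4b, an ATPase that releases the membrane scission machinery, had 1834, 3255 and 2488 in astrocyte sEVs, against 273, 474 and 336 in neuron sEVs. Its log2 difference of 2.80 ± 0.38 exceeded the 0.53 in cells, with an interaction of 2.27 (SE of the first value, limma adjusted p = 0.00297 and 0.00567).

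Other members of that machinery did not differ beyond their spread. Tsg101 had 5526, 4253 and 5877 normalized counts in astrocyte sEVs and 5234, 5009 and 3939 in neuron sEVs, and Pdcd6ip, which encodes Alix, had 791, 984 and 1748 in astrocyte sEVs and 1393, 852 and 894 in neuron sEVs. Both overlapped between the groups, with log2 differences of 0.14 ± 0.21 and 0.12 ± 0.41 (SE, limma adjusted p = 0.669 and 0.852), and that of Pdcd6ip turned to -0.21 without astrocyte sEV replicate 3 and -0.01 without neuron sEV replicate 2. The tetraspanin gene Cd9 was called at 2.05 ± 0.56 (SE, limma adjusted p = 0.0403), a call lost at 1.99, 1.71, 1.52, 2.36 and 2.27 without astrocyte sEV replicate 1 or 2 or neuron sEV replicate 1, 2 or 3. Cd81 was called at 1.26 ± 0.30 (SE, limma adjusted p = 0.0262), a call lost at 1.06 and 1.26 without neuron sEV replicate 1 or 3. The list as a whole had 5 higher calls without astrocyte sEV replicate 1 and 4 each without neuron sEV replicate 1, 2 or 3, where the lower calls were 0, 1 and 2. Arc, whose protein forms capsids that carry RNA between cells, had 135, 153 and 379 in astrocyte sEVs and 188, 197 and 303 in neuron sEVs, and its log2 difference of -0.17 ± 0.76 did not pass the test. That value changed sign with equal totals, to 0.07. Of 15 genes related to such capsids, 4 were called lower and none higher (26.7% called, beside 22.1% of all genes). Their lower calls were 1, 1 and 2 without neuron sEV replicate 1, 2 or 3.

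The remaining lists held between 2 and 9 calls each. Calls came to 9.09% of lysosome genes, 9.09% of immediate early genes, 14.7% of cell cycle genes and 16% of interferon genes. They came to 18.5% of matrix, 20% of glycolysis and 22.2% of neurodegeneration-linked genes. All of these shares were near or below the 22.1% of all genes, while 31.2% of the noncoding RNAs were called. Of 24 cholesterol synthesis genes, 8 were called lower and 1 higher (37.5% called, beside 22.1% of all genes), with Fdps, an enzyme that builds farnesyl groups, at 6576, 6921 and 5668 normalized counts in astrocyte sEVs and 15406, 14361 and 15124 in neuron sEVs, a log2 difference of -1.23 ± 0.16 (SE, limma adjusted p = 0.00268). The lower calls in that list were 3, 3 and 4 without neuron sEV replicate 1, 2 or 3, and 1 with microglia sEVs in the fit. Of 33 lysosome genes, 3 were called higher and none lower, and their median log2 difference of -0.03 turned to 0.42 after quantile normalization and 0.21 with equal totals. Cell cycle genes had 1 higher and 4 lower calls of 34, and a median of -0.16 that turned to 0.08 under both scalings. Immediate early genes, which neuronal activity induces, had 2 lower calls of 22, Npas4 and Fosb, whose log2 differences of -4.69 and -4.20 turned to 0.35 and 0.29 after quantile normalization, and a list median of -0.20 that turned to 0.72 after quantile normalization and 0.05 with equal totals. Extracellular matrix genes had 1 higher and 4 lower calls of 27. Of the 4, 2 were at 0 in all astrocyte sEV libraries and had to differ. Glycolysis and lactate genes had 3 higher and 2 lower calls of 25. Interferon and antigen presentation genes had 3 higher and 1 lower of 25, and 7 higher with microglia sEVs in the fit. The 1 lower gene was at 0 in all astrocyte sEV libraries and had to differ. Neurodegeneration-linked genes had 2 higher and 4 lower calls of 27. Among 16 nuclear noncoding RNAs, 2 were called higher and 3 lower. Malat1, an abundant RNA retained in the nucleus, had 91854, 47325 and 28401 in astrocyte sEVs, against 14051, 8578 and 17142 in neuron sEVs, a log2 difference of 1.97 ± 0.46 (SE, limma adjusted p = 0.0227), a call lost at 2.04 and 1.68 without neuron sEV replicate 1 or 2. Leaving out single libraries changed these small counts. Without 1 neuron sEV library, the lower interferon gene and 2 of the 4 lower matrix genes could not pass the filter. Their calls had to be lost there. Without neuron sEV replicate 1, 2 or 3 no matrix, interferon or immediate early gene was called lower, 1, 1 and 2 lysosome genes, 1, 2 and 1 interferon genes, 1, 0 and 2 glycolysis genes and 0, 1 and 1 noncoding RNAs were called higher, and 1 noncoding RNA and 1 cell cycle gene were called lower each time. Without astrocyte sEV replicate 2 there were 8 lower matrix genes, 7 lower neurodegeneration-linked genes, 6 lower noncoding RNAs and 3 lower lysosome genes.

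The transcripts with the largest differences included several with no reads on 1 side. Among genes higher in astrocyte sEVs, Gbp6, an interferon-induced GTPase with near-identical relatives Gbp10 and Gbp11, had 1312, 862 and 791 normalized counts in astrocyte sEVs and was listed at 0 in all 3 neuron sEV libraries. Il13ra1, a receptor chain for interleukins of the type 2 response, had 668, 331 and 376 in astrocyte sEVs and was listed at 0 in neuron sEVs. Folr2, a folate receptor, Traf5, a signalling adaptor, Ttr, the thyroxine carrier of choroid plexus, and Nmrk2, a kinase of NAD synthesis, were likewise listed at 0 in all neuron sEVs. Mmp12, a macrophage elastase, had 336, 306 and 224 in astrocyte sEVs, against 1.25, 0 and 0 in neuron sEVs, while astrocyte cells averaged 2.90 ± 4.66 (SD, n = 3) and all neuron cell libraries were at 0. The other increases named by the rule were Mobp, Cdkn2b, Ugt1a6a, Tmem88b, Bbox1, Rsad2, Ddc and Nid2. The calls of Ttr and Nmrk2 were lost without neuron sEV replicate 1, 2 or 3, at log2 values of 7.07 and 6.84 that rest on the pseudocount. Leaving out 1 or more single libraries also ended the calls of Cdkn2b, Ugt1a6a, Tmem88b, Bbox1, Rsad2, Ddc and Nid2, at log2 values between 4.49 (Nid2 without neuron sEV replicate 1) and 7.17 (Ddc without neuron sEV replicate 3). All of these have a neuron sEV library at 0. Ugt1a6a shares exons with other Ugt1a genes and Nid2 overlaps Rtraf, so their reads are uncertain.

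Among genes lower in astrocyte sEVs, 11 of the 15 named by the rule were listed at 0 in all 3 astrocyte sEV libraries. Beside Cck these were Caln1, a calcium-binding protein at 7195, 7047 and 4128 normalized counts in neuron sEVs, Nnmt, a nicotinamide methyltransferase at 3269, 3628 and 2771, and Cacna1i, a T-type calcium channel at 3038, 3104 and 2168. Iqsec3, Slc29a4, Clmp, Dmtn, Ackr1, Nrip3 and Fam163b completed them. Ackr1 overlaps Cadm3 on the same strand, so its reads are uncertain. Camkv, Atp8a2, Ddn and Wipf3 were above 0 in 1 astrocyte sEV library each and at no more than 3.22. These genes were not confined to sEVs: Caln1 averaged 18.9 ± 12.3 in astrocyte cells and 2421 ± 260.3 in neuron cells (SD, n = 3 each), and Cck 4.32 ± 2.20 in astrocyte cells and 4311 ± 975 in neuron cells.

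By normalized count, not corrected for length, the same 2 genes stood first in both groups. Ftl1, the light chain of the iron store ferritin, took 12.3%, 22.0% and 14.0% of astrocyte sEV libraries and 10.5%, 15.2% and 13.1% of neuron sEV libraries. Gm42047, a predicted gene with 6 near-identical copies, took 6.30%, 6.48% and 7.19% of astrocyte sEV libraries and 7.28%, 5.47% and 6.10% of neuron sEV libraries. Both shares overlapped between the groups, and the exact permutation p was 0.5 for each (two-sided, adjusted 0.583). Gfap, Ubb, Prdx6 and Pea15a were among the 10 highest genes of astrocyte sEVs and not of neuron sEVs. Rps2, Rpsa, Rcc2 and Tuba1a were among the 10 highest of neuron sEVs and not of astrocyte sEVs. Eef1a1, Rplp0, Fth1 and 5031425E22Rik stood among the 10 highest of both.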

How the data were processed

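The authors deposited a table of 54307 genes with normalized counts, used here as signal values. The submitters' processing notes name Salmon 1.8.0, GRCm39 and DESeq2, which per these notes made the deposited values. Per the labels' protocols, cDNA was primed with poly-dT, amplified with 15 PCR cycles and tagmented. Raw counts could not be recovered from the deposited signal (2.90 to 9.04% of values below 100 were whole within 0.001), so no count model was run. The deposited group means were not used.

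Genes reaching a value of 10 in 3 or more of a fit's libraries entered limma 3.58.1 (R 4.3.3; lmFit, eBayes with a trend) on log2(value + 1), for the 6 sEV libraries and, as an interaction, for the 12 astrocyte and neuron libraries. Library measures were compared in Python 3.11.15 with pandas 2.3.3 and SciPy 1.17.1. The members and gene lists were chosen with earlier results of these data known. Genes named were the 15 largest changes each way (called, mean of at least 50, no overlap), the 10 highest genes per group, up to 4 members of each list and the 10 genes of the interaction by smallest p, and a few sEV and cell markers. Other list members were named after their values were seen, and some results are not reported here. Of the genes, 32514 had a symbol in the table and 19622 were named from GENCODE vM21 (GRCm38), which also served for length, GC content, overlaps and near-identical copies (blastn 2.17.0, at least 95% identity over 300 bases). Besides those marked in the text, Ftl1, Eef1a1, Tuba1a, Ubb, Atp8a2, Cnn3, Prdx1, Rpl37, Rplp0, Tpt1, Eif4a1, Atp5g1, Sdcbp, Vps4b, Tsg101 and Folr2 have near-identical copies, and Mobp, Nmrk2, Pea15a, Clmp, Ddn, Wipf3, Plec, Mt2, Slc1a2, Bcas1, Cacng2, Ndufb9, Cd9, Cd81, Malat1, Traf5, Mmp12, Rcc2, Eif5 and Fdps overlap other annotated genes, so their reads are partly uncertain. Replicate numbers were not used as pairs, since the labels give no pairing. The fits were first tested on simulated data.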

Additional observations from a re-analysis of the deposited data

Results flagged for a closer look

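The astrocyte minus neuron difference departed between sEVs and cells in 482 genes upward and 505 genes downward, by the tested interaction in limma (adjusted p under 0.05), and these genes are given for that reason. The 10 with the smallest p-values follow, as the sEV difference minus the cell difference on the log2 scale. Igf1 stood at 8.17, Zwint, a kinetochore protein, at 1.64, Ilk at -2.24 and Cox6a1 at -2.64, with reads in every sEV library. Mfsd2a, a lipid transporter, stood at -7.58, with 1.10, 0 and 0 normalized counts in astrocyte sEVs and 526, 291 and 558 in neuron sEVs. Ackr1 at -7.45, Slc29a4 at -6.18, Gm37069 at -11.35, Dynlt1-ps1 at -10.69 and Lncenc1 at -7.21 were listed at 0 in all 3 astrocyte sEV libraries, so their values, like that of Mfsd2a, rest on the pseudocount. Dynlt1-ps1 had 1753, 1334 and 1940.0 normalized counts in neuron sEVs and was listed at 0 in both kinds of cell, and it is near-identical to Dynlt1a, Dynlt1b, Dynlt1c and Dynlt1f, so its reads are uncertain. Lncenc1 had 107, 145 and 204 in neuron sEVs and was likewise listed at 0 in both kinds of cell. Dynlt1-ps1 and Lncenc1 thus passed the filter through neuron sEVs alone and had to differ. Their small p-values are therefore no test of a departure from the cells.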

How the results depend on the processing

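Genes called higher in astrocyte sEVs numbered 1558 after quantile normalization, 1285 with equal totals that leave out Ftl1 and Gm42047 (a scaling added after seeing the data), 443 without a trend in the variance, 486 with all 9 sEV libraries in the fit and 252 to 866 without single libraries. Genes called lower numbered 584 to 3206 without single libraries. The replicate block gave 714 higher and 2296 lower in sEVs and 383 and 370 in the interaction. The labels give no pairing: correlations of deviations from the group means were 0.014, 0.028 and 0.037 for same-numbered libraries. Each library correlated best with its own number, but these values were near 0 and no pairing was drawn from them. In the interaction, genes with a higher sEV difference numbered 80 to 728 and with a lower one 206 to 1122 without single libraries. Lower ones numbered 331 with equal totals and 327 without Ftl1 and Gm42047. The cause was not tested.

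After quantile normalization log2 differences were 0.00 for Ftl1 and Gm42047, 0.09 for Fth1, 0.46 for 5031425E22Rik, 1.16 for Folr1, 1.14 for Hba-a1, 0.35 for Npas4, 0.29 for Fosb, 0.78 for Arc and 0.15 for Slc1a2. Of these Npas4 and Fosb had been called lower, at -4.69 and -4.20, and Folr1 and Hba-a1 stood at -1.97 and -2.24 without a call. With equal totals they were 0.09 for Gm42047, 0.07 for Arc and 0.13 for Slc1a2, and without Ftl1 and Gm42047 0.16, 0.14 and 0.19, with 0.02 for 5031425E22Rik. Library weights gave -0.08 for Ftl1 and 0.14 for Arc. Without single libraries, Arc ranged from -0.64 to 0.11 (above 0 without astrocyte sEV replicate 1 or 2 or neuron sEV replicate 3) and Ftl1 from -0.33 to 0.28 (below 0 without astrocyte sEV replicate 2 or neuron sEV replicate 1). Over the same omissions Aldoc ranged from -0.25 to 0.31 (below 0 without astrocyte sEV replicate 3 or neuron sEV replicate 1), Pdcd6ip from -0.21 to 0.36 (below 0 without astrocyte sEV replicate 3 or neuron sEV replicate 2), Slc1a2 from -0.61 to 0.42 (0 or above without astrocyte sEV replicate 3 or neuron sEV replicate 2 or 3) and mt-Nd2 from -1.58 to 0.04 (above 0 without astrocyte sEV replicate 3). The difference in share, in percentage points, ranged from -0.104 to 0.105 for mitochondrially encoded genes (below 0 without astrocyte sEV replicate 1 or 2 or neuron sEV replicate 2), from -0.364 to 4.19 for the 10 highest genes (below 0 without astrocyte sEV replicate 2) and from -0.0359 to 0.87 for Gm42047 (below 0 without neuron sEV replicate 2). As a share of the total without Ftl1, that of the 10 highest genes was -0.887.

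With 3 libraries a group and a median SE of 0.63 on the log2 scale, small differences could not be called, and a gene without a call is not shown to be alike in both groups. Genes listed at 0 were below detection at this depth, which is an estimate for want of raw counts.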
